A study of Mus musculus with 3 samples.

Results

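The interferon-induced GTPases and response genes described here are 35 of the 32285 genes in the count matrices. They were taken by symbol, and each symbol was a single row of the matrices. They fall into 11 GTPase genes read as interferon gamma type (Gbp2 to Gbp9, Igtp, Iigp1 and Irgm1), 4 other GTPase genes (Irgm2, Tgtp1, Tgtp2 and Ifi47), 4 genes read as type I (Isg15, Ifit1, Ifit3 and Rsad2), 8 regulators, 3 antigen processing genes, 2 serpins, and Ifi27l2a, Bst2 and Oasl2. Lymphocytes came from perfused lungs of GFI1B-GFP reporter mice, which carry GFP as a readout of the Gfi1b gene, and every library shared a sort for live CD45+ lin- CD90.2+ IL-7R+ cells. There were 3 libraries, 1 per group: an IL-18R+ pool that mixed IL-18R+ CD103+ GFP- cells with IL-18R+ CD103- GFP+ cells, a library with the label IL-18R- CD103- GFP- (called the second library below), and a library of IL-18R- ST2+ cells (called the third or ST2+ library). The pool's cells could not be assigned to either of its sorts, no treatment is named in the labels, and the sources used here do not give the age or the number of the mice. With 1 library per group no difference had a replicate check and no test was run, and each interval below is a 95% interval that covers counting error only.

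Interferons are cytokines that set cells on guard against viruses and other intracellular microbes. Interferon gamma is made by T cells, NK cells and ILC1 and acts through the receptor chains IFNGR1 and IFNGR2 to switch on genes that carry GAS elements. Type I interferons act through IFNAR1 and IFNAR2 and a complex that includes STAT2 and IRF9 and binds ISRE elements. The guanylate-binding proteins (Gbp genes) and the immunity-related GTPases (Igtp, Iigp1, Irgm1, Irgm2, Tgtp1, Tgtp2, Ifi47) respond strongly to interferon gamma. Some of them attack the vacuoles in which microbes live, and others guard host membranes. Isg15, a ubiquitin-like modifier, the RNA-binding Ifit genes and Rsad2, an antiviral enzyme, respond strongly to type I interferon. The division is one of degree, since many of these genes respond to either cytokine.

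Promoter letters are shown first because they set the GTPase genes beside the type I genes at the level of sequence. A window of 300 bases per start site, from 250 bases before to 50 after, was at hand for 26 of the 35 members (RefSeq, GRCm38.p6). Both strands were searched for an ISRE core (GAAA, any 2 bases, GAAA) and for a GAS, TTCNNNGAA. The ISRE core stood in 16 of the 26 members with a window, against 3.44% of 32851 windows of the same length, and the GAS stood in 11 of 26, against 8.30%. Both stood in 7 of 26, against 0.454% of windows. Each of the 4 type I genes held an ISRE core and none held a GAS. The 6 gamma type genes with a window each held an ISRE core, and Gbp5, Gbp7 and Igtp held a GAS as well. Apart from Bst2, where the motifs overlapped, no member had a GAS and an ISRE core on shared bases. Igtp, Irgm2, Tgtp1 and Tgtp2 carried the same arrangement, a GAS followed after 2 bases by an ISRE core. That arrangement, in either order, was found in 5 of 32851 windows (0.0152%), and 4 of the 5 belong to these members. The fifth window belongs to Gm12185, a gene that shares transcript letters with the ends of Tgtp1 and Tgtp2. The stretches of Igtp and Irgm2 are also close in the letters around the motifs, as are those of Tgtp1 and Tgtp2. The 5 windows thus cannot be counted as independent finds. A match is a description of letters and shows no binding. The stretches below run 5′ to 3′ on each gene's strand, with the motifs in capitals.
Igtp, chr11:58199496-58199546, plus strand: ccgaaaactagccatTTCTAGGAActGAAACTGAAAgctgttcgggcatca
Irgm2, chr11:58214887-58214937, plus strand: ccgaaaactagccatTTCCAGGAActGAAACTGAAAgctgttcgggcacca
Tgtp1, chr11:48992299-48992349, minus strand: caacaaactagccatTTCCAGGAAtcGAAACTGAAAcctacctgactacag
Tgtp2, chr11:49064258-49064308, minus strand: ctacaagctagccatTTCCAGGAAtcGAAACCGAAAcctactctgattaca

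For comparison, 100 bases are shown for Gbp7, in which the ISRE core lies away from a pair of GAS, and for the type I genes Isg15 and Ifit1, which hold several ISRE cores and no GAS.
Gbp7, chr3:142530196-142530295, plus strand: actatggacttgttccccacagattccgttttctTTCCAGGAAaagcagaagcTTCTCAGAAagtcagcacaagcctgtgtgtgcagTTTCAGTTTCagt
Isg15, chr4:156200859-156200958, minus strand: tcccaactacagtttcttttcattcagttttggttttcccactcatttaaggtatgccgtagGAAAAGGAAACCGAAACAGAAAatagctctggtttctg
Ifit1, chr19:34640749-34640848, plus strand: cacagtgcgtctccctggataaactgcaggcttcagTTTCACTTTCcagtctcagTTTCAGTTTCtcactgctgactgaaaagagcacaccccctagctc

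Many members sit in gene clusters, on GRCm38 with GENCODE M21 models. Gbp5, Gbp7, Gbp3 and Gbp2 lie together on chromosome 3 between 142493978 and 142638008, and Psmb9, Tap1 and Psmb8 lie together on chromosome 17 between 34181987 and 34201454. Gbp8, Gbp9, Gbp4 and Gbp6 lie on chromosome 5, and Irgm1, Tgtp1, Tgtp2, Ifi47, Irf1, Igtp and Irgm2 lie on chromosome 11. Near-identical copies make some counts uncertain, since the chemistry reads the 3′ ends of transcripts. In the last 500 bases of its transcripts, 88.9% of the 50-base windows of Gbp6 also occurred in other genes, among them Gbp10. The share was 80.8% for Tgtp1 and 73.7% for Tgtp2, which share letters with each other, and 19.5% for Serpina3g, 14.9% for Ifit3 and 14.2% for Gbp4. Values of these 6 genes are uncertain to that extent. The gene models of Igtp and Irgm2 overlap on the same strand, as do those of Gbp8, Gbp9 and Gbp4, and reads in the shared parts cannot be assigned to 1 gene.

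The pool, the second library and the ST2+ library held 1688, 1903 and 1760 barcodes, an order kept throughout. After filters, T cells and ILC numbered 1454, 1805 and 1573 with 7711869, 9221702 and 7635170 UMIs. Levels are UPM, a gene's UMIs summed over these cells, divided by all their UMIs and multiplied by 1000000. The labelled absence of IL-18R was not matched by transcript in the second library: Il18r1 stood at 722.9, 598.2 and 15.85 UPM, so directions drawn against that library are directions against its label. Itgae, the CD103 gene, went with the labels, at 109.7, 3.470 and 2.881 UPM. Gfi1b had 0 UMIs in each library, with upper interval bounds of 0.4783, 0.4000 and 0.4831 UPM. By marker gates the pool held 854 gamma delta T cells (Trdc in 98.9% of them), the second library 1435 (99.5%) and the third 1241 ILC2 (Gata3 in 92.6%). The third library's gamma delta gate held 66 cells, of which 81.8% had an Il1rl1 UMI and 22.7% a Trdc UMI, so these were not read as gamma delta T cells. Gated lineages are named by markers and were not sorted as such.

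Of the antigen processing genes, Psmb8, an immunoproteasome subunit, stood at 392.9 UPM (379.0 to 407.1), 390.1 UPM (377.4 to 403.0) and 231.2 UPM (220.5 to 242.2). Psmb9, its partner subunit, stood at 80.65, 85.56 and 62.21 UPM, and Tap1, part of the peptide transporter, at 56.93, 60.08 and 28.55 UPM. For all 3 the first libraries lay close together and the ST2+ library below them. Levels are counted at transcript ends and not per length. Different genes can be compared only roughly, since shared end letters and overlapping models differ by gene.

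Among the gamma type GTPases, Gbp7 stood at 50.44, 62.68 and 61.69 UPM and Gbp4 at 38.12, 48.36 and 47.41 UPM. For these genes the ST2+ library lay close to the second library and the pool was lowest. Gbp8 stood at 45.00, 38.28 and 20.30 UPM, Gbp6 at 29.69, 29.28 and 9.168 UPM, and Gbp2 at 23.34, 25.70 and 12.97 UPM. Igtp, a GTPase that guards host membranes, stood at 30.34 UPM (26.58 to 34.49), 38.60 UPM (34.70 to 42.83) and 6.418 UPM (4.748 to 8.484), and Irgm1, of the same guarding class, at 17.76, 20.28 and 9.037 UPM. These 5 genes were lowest in the ST2+ library, with no overlap of counting intervals. Gbp3, Gbp5, Gbp9 and Iigp1 were under 20 UPM in each library, at 3.929 to 12.80 UPM. Gbp5 varied least among them, at 4.020, 4.663 and 4.584 UPM.

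The other GTPases were lowest in the ST2+ library. Ifi47 stood at 32.94, 42.83 and 14.41 UPM. Irgm2 stood at 6.613, 8.784 and 0.9168 UPM, from 51, 81 and 7 UMIs. Tgtp1 and Tgtp2 were at 1.310 to 8.350 UPM over the libraries, from few UMIs, and their intervals in the pool overlapped those in the ST2+ library.

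Type I genes were sparse apart from Isg15, at 43.96 UPM (39.40 to 48.90), 36.76 UPM (32.95 to 40.89) and 18.07 UPM (15.18 to 21.35). Ifit1 had 46, 76 and 4 UMIs, Rsad2 34, 23 and 5, and Ifit3 13, 27 and 0. In the pool, 39.1% of the Ifit1 UMIs and 69.2% of the Ifit3 UMIs lay in 3 cells, so these sums rest on few cells. Ifi27l2a, a small interferon-induced protein, stood at 114.0, 101.3 and 7.465 UPM, with 22.6% of the pool's UMIs in 3 cells. Bst2, or tetherin, which holds budding virus at the cell surface, stood at 81.95, 81.98 and 59.99 UPM. Oasl2, of the oligoadenylate synthetase family, stood at 10.24, 8.241 and 0.9168 UPM.

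Of the 8 regulators, Socs1, which shuts off JAK signalling, was highest in the pool, at 158.5 UPM (149.7 to 167.6) against 144.7 UPM (137.0 to 152.6) and 81.47 UPM (75.19 to 88.13). Irf1, an early transcription factor of the interferon gamma response, stood at 100.8 UPM (93.79 to 108.1), 131.4 UPM (124.1 to 139.0) and 48.33 UPM (43.52 to 53.52). The factors of the type I complex were lower: Irf9 at 19.71, 25.16 and 12.05 UPM and Stat2 at 14.52, 14.42 and 6.287 UPM. Irf7, which amplifies type I interferon, stood at 22.30, 26.35 and 9.299 UPM, Zbp1, a nucleic acid sensor, at 26.71, 25.92 and 15.32 UPM, and Nlrc5, the activator of class I genes, at 22.82, 33.29 and 16.63 UPM. Usp18, which removes Isg15 from proteins, was near its limit at 1.297 to 2.169 UPM. The protease inhibitor Serpina3g stood at 38.90, 57.47 and 48.85 UPM and Serpina3f at 9.207, 21.90 and 8.382 UPM, and both were highest in the second library.

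**Figure D1:**
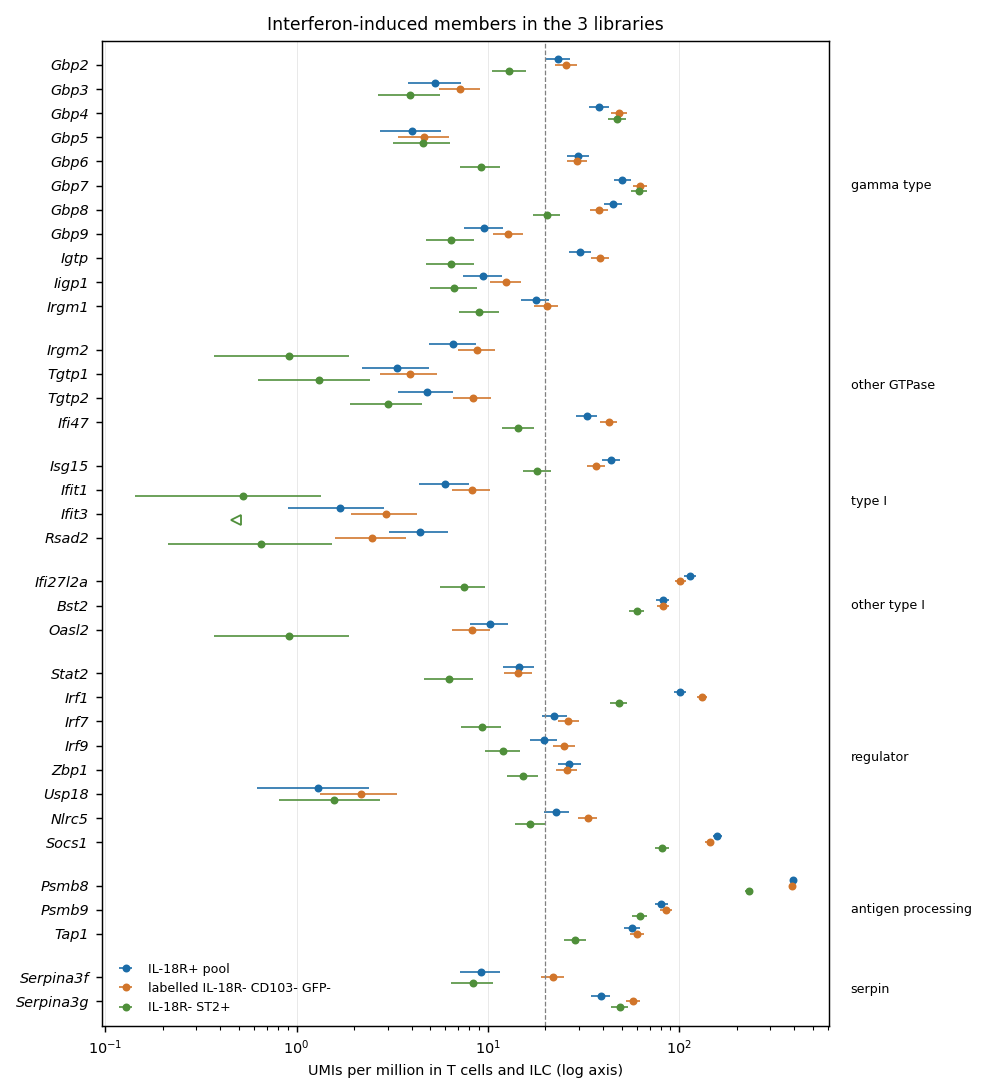
Level of each member in T cells and ILC of the 3 libraries, in UPM on a log axis, with 95% counting intervals as lines. The dashed line marks 20 UPM and the open arrow the upper limit for Ifit3, with 0 UMIs in the IL-18R- ST2+ library. Igtp falls from 30.34 and 38.60 to 6.418 UPM while Gbp7 lies at 50.44, 62.68 and 61.69 UPM.

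Between libraries a gene counted as measured at 20 UPM or more in either, and as called at a ratio of at least 2, with sums raised to a floor of 3 UMIs. Of 22 members measured, 0 were called higher in the pool than in the second library, beside 0.761% of all 5653 genes measured. In the second library 1 was higher, Serpina3f, beside 0.902%. Serpina3f was 2.38-fold higher (1.81 to 3.16) in the second library, where alone it reached 20 UPM. The members' median log2 ratio, pool over second library, was -0.16, beside 0.09 over all genes measured. Igtp was 1.27-fold (1.08 to 1.51), Irf1 and Ifi47 1.30-fold and Nlrc5 1.46-fold (1.21 to 1.77) higher in the second library, all short of a ratio of 2.

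Against the IL-18R- ST2+ library, 8 of 19 members measured were called higher in the pool and 0 lower. Over all genes measured, 11.1% were higher in the pool and 4.81% lower. The 8 were Gbp6, Gbp8, Igtp, Ifi47, Irf1, Irf7, Isg15 and Ifi27l2a. Of these, all but Gbp8 and Irf1 counted as measured through the pool alone, being under 20 UPM in the ST2+ library. No member counted as measured through the ST2+ library alone. Igtp was 4.73-fold higher (3.46 to 6.57), Gbp6 3.24-fold (2.47 to 4.30), Isg15 2.43-fold (1.99 to 2.99) and Irf1 2.08-fold (1.84 to 2.37). Ifi27l2a had the widest ratio, 15.3-fold (11.7 to 20.3). Gbp7, Gbp4 and Serpina3g ran the other way without reaching a factor of 2, at ratios of 0.818 (0.713 to 0.937), 0.804 (0.687 to 0.940) and 0.796 (0.682 to 0.930). The members' median log2 ratio was 0.96, beside 0.29 over all genes measured. Under TMM scaling, which lowered the median of all genes by 0.25, 5 members were called (Gbp6, Igtp, Irf7, Isg15 and Ifi27l2a), and the share of all calls that were higher in the pool went from 69.7% to 52.6%.

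In the second library 12 of 22 members measured were higher than in the ST2+ library and 0 lower, beside 10.2% of genes higher and 5.42% lower. Igtp was 6.02-fold higher (4.45 to 8.28), Gbp6 3.19-fold (2.45 to 4.22), Ifi47 2.97-fold (2.40 to 3.71), Irf7 2.83-fold (2.17 to 3.75), Irf1 2.72-fold (2.42 to 3.06) and Serpina3f 2.61-fold (1.96 to 3.52). Irgm1, Irf9, Isg15, Ifi27l2a, Tap1 and Nlrc5 were the others. Of the 12, all but Irf1 and Tap1 counted as measured through the second library alone. Gbp4, Gbp5 and Gbp7 had ratios of 1.02 each. The median log2 ratio was 1.01, beside 0.20 over all genes measured. TMM scaling gave 7 (Gbp6, Igtp, Ifi47, Irf1, Irf7, Serpina3f and Ifi27l2a) and took the share of all calls that were higher in the second library from 65.2% to 53.6%. Both comparisons share the IL-18R- ST2+ library. Below 20 UPM, Irgm2 was 7.21-fold (3.26 to 18.8) and 9.58-fold (4.44 to 24.6) higher in the first and second libraries than in the third, Oasl2 11.2-fold (5.18 to 28.7) and 8.99-fold (4.16 to 23.1), and Ifit1 11.4-fold (4.16 to 43.6) and 15.7-fold (5.90 to 59.2).

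These library differences carry a difference in lineage, so sums were taken within gates. The gamma type sum in gamma delta T cells was 281.0 UPM (265.0 to 297.7) in the pool and 306.0 UPM (293.4 to 319.1) in the second library. In ILC2 of the third library it was 191.1 UPM (180.2 to 202.4). Alpha beta T cells, 235 and 110 of them, stood at 245.3 and 239.3 UPM. The gate for ILC progenitor-like cells (CD3-low with Il18r1 and Tcf7) stood lower, at 137.8 UPM (113.5 to 165.8; 112 cells) and 182.9 UPM (143.4 to 230.0; 78 cells). ILC1 and NK cells stood higher, at 464.5 UPM (388.7 to 550.9; 38 cells) and 459.5 UPM (369.0 to 565.4; 34 cells). Among these 4 gates ILC1 and NK cells stood highest in each library, followed by gamma delta T, alpha beta T and ILC progenitor-like cells. Intervals of gamma delta and alpha beta T cells overlapped in the pool (alpha beta T, 219.7 to 273.1 UPM), and those of alpha beta T (204.6 to 278.3 UPM) and progenitor-like cells overlapped in the second library. In such sums fewer expressing cells and less RNA per cell cannot be told apart.

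The type I sum was 48.90 UPM (42.37 to 56.14) and 47.15 UPM (42.27 to 52.45) in gamma delta T cells of the first and second libraries, and 17.41 UPM (14.24 to 21.08) in ILC2. In alpha beta T cells it was higher, at 82.51 UPM (67.94 to 99.28) and 77.89 UPM (58.68 to 101.4). Gamma type UMIs outnumbered type I UMIs 5.75-fold (4.94 to 6.71) and 6.49-fold (5.79 to 7.30) in gamma delta T cells, 2.97-fold (2.39 to 3.72) and 3.07-fold (2.25 to 4.25) in alpha beta T cells. In ILC2 the ratio lay between 8.98 and 13.5 by its counting interval. The type I list has fewer genes, so these are ratios of sums and not of mean levels. In the 50 cells of the pool's myeloid gate the type I sum was 357.9 UPM (296.5 to 428.3) and the gamma type sum 93.23 UPM (63.35 to 132.3), a ratio of 0.261 (0.170 to 0.390). In the stromal gate the gamma type sum was 817.0, 844.7 and 671.1 UPM in 88, 25 and 24 cells, above each lymphocyte gate, and 4.36-fold (3.51 to 5.44), 6.33-fold (3.83 to 11.1) and 3.88-fold (2.45 to 6.35) the type I sum. The endothelial gene Cdh5 stood at 732.2, 778.0 and 440.2 UPM there and Pecam1 at 409.4, 437.1 and 252.6 UPM. The gate also held transcript of other cells: Trdc at 1141 UPM in 40.0% of its cells in the second library, and in the third Il1rl1 at 700.0 UPM in 58.3%, Gata3 at 555.6 UPM and the epithelial gene Epcam at 310.3 UPM. The part of these cells in the values of the gate was not tested.

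**Figure D2:**
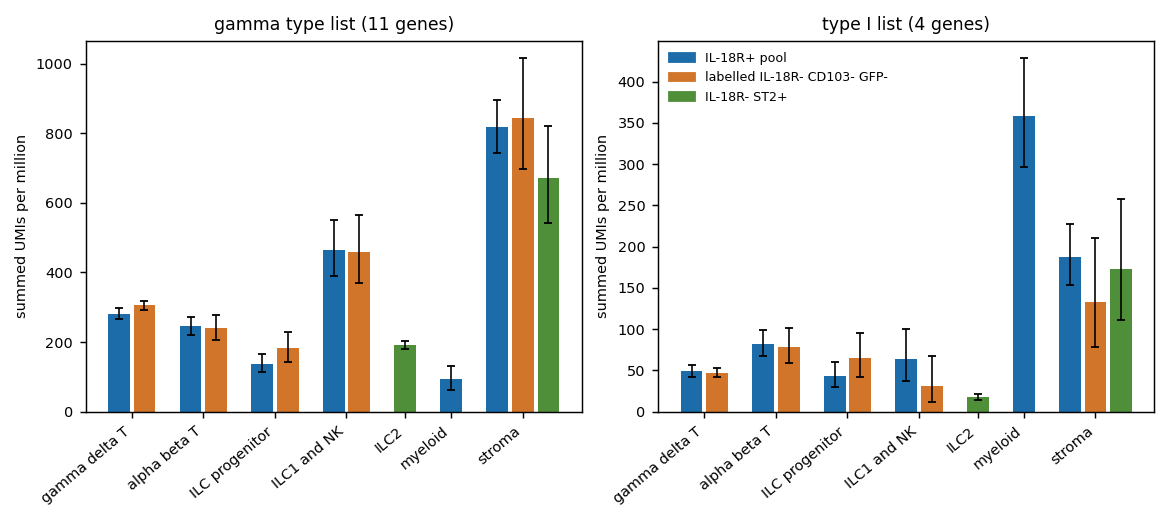
Summed UPM of the gamma type list and the type I list by marker gate, coloured by library, with 95% counting intervals. Drawn are the gamma delta T, alpha beta T, ILC progenitor, ILC1 and NK, ILC2, myeloid and stromal gates where they held at least 20 cells. The third library's gamma delta gate, the B gate, other T cells and other CD3-low cells are not drawn. The stromal gate (671.1 to 844.7 UPM) stands highest for the gamma type list, and myeloid cells of the pool (357.9 UPM) for the type I list.

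Single members differed between lineages in both libraries. Each was compared with gamma delta T cells of its own library, with a call that also needed a counting interval clear of 1. In alpha beta T cells Ifi27l2a stood at 289.5 and 417.8 UPM, against 48.90 and 76.64 UPM in gamma delta T cells, or 5.92-fold (4.98 to 7.05) and 5.45-fold (4.72 to 6.29). Serpina3g ran the other way, at 11.79 and 8.497 UPM in alpha beta T cells against 38.19 and 51.33 UPM. These were 1 and 1 of 20 members measured, where 0.941% of genes were called higher and 1.56% lower in both libraries. Serpina3g counted as measured through gamma delta T cells alone, so it could be called lower but not higher. In ILC progenitor-like cells Gbp6 (13.54 and 7.517 UPM, against 32.35 and 30.46) and Igtp (11.08 and 15.03 UPM, against 26.27 and 39.50) were lower in both libraries, 2 of 20 members beside 1.75% of genes. Higher in both were 0, beside 2.62% of genes. Gbp6 and Igtp, too, counted as measured through gamma delta T cells alone. In ILC1 and NK cells Irf1, Serpina3f and Serpina3g were higher in both, 3 of 23 beside 4.85%. Serpina3g reached 200.6 and 206.5 UPM there, Irf1 228.8 and 320.1 UPM, and Serpina3f 52.79 and 160.0 UPM. Serpina3f was under 20 UPM in gamma delta T cells of both libraries, so it could be called higher but not lower. Igtp stood at 119.7 and 72.28 UPM there. Lower in both were 0 members, beside 2.45% of genes.

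Cells of the stromal gate had 10 of 27 members higher than gamma delta T cells in both libraries, beside 10.0% of genes, and 0 lower in both, beside 0.706%. The 10 were Gbp2, Gbp3, Iigp1, Irgm1, Stat2, Irf1, Isg15, Ifit1, Bst2 and Oasl2. Of these, at least Gbp3, Iigp1, Ifit1 and Oasl2 were under 20 UPM in gamma delta T cells of both libraries. They counted as measured through the stromal gate alone, and such members could be called higher but not lower. Iigp1 stood out in size, at 310.2 and 318.6 UPM against 11.43 and 12.38 UPM in gamma delta T cells, or 27.1-fold (19.5 to 38.3) and 25.7-fold (17.5 to 37.4). In the third library 12 of 24 members measured were higher in the stromal gate than in ILC2, beside 11.9% of genes, and 0 lower, beside 1.34%. Iigp1 was again far apart there, at 238.1 and 8.292 UPM, a ratio of 28.7 (17.9 to 45.5). It again counted as measured through the stromal gate alone. Any member under 20 UPM in ILC2 did so too and could be called higher but not lower. Of all Iigp1 UMIs of the pool, 70.6% lay in B, myeloid and stromal gates, against 29.0% in the second library and 39.3% in the third. Gbp8 showed the reverse in the pool, at 12.62 UPM in the stromal gate and 54.98 UPM in gamma delta T cells.

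With the lineage held fixed, gamma delta T cells of the pool and of the second library had 0 of 20 members called, where 1.81% of genes were. The mix of subsets still differed: 54.4% and 33.2% of these cells had an Il17a UMI, and 17.2% and 40.4% a Cxcr3 UMI. The part of this mix in the values below was not tested. The median log2 ratio, pool over second library, was -0.23, beside 0.07 over all genes measured. The gamma type genes with most UMIs in the pool were Gbp8 at 54.98 and 40.34 UPM, Gbp7 at 53.76 and 62.73, Gbp4 at 42.82 and 52.58, and Gbp6 at 32.35 and 30.46. Gbp8 was higher in the pool, at a ratio of 1.36 (1.14 to 1.63), and Igtp lower, at 0.665 (0.528 to 0.833), neither reaching a factor of 2. Serpina3f was at 8.271 and 19.89 UPM, a ratio of 0.416 (0.277 to 0.608), and missed the level of 20 UPM narrowly. Under TMM scaling it passed and was the 1 member called. Isg15 stood at 37.71 and 35.75 UPM, Psmb8 at 415.7 and 399.5, Socs1 at 161.3 and 141.9, and Irf1 at 103.9 and 130.7.

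In alpha beta T cells, 2 of 22 members measured were higher in the pool, beside 9.77% of genes: Gbp8 at a ratio of 2.29 (1.29 to 4.32) and Isg15 at 2.29 (1.40 to 3.93). In the second library 3 were higher, beside 3.42% of genes: Gbp9 2.26-fold (1.13 to 4.60), Ifi47 2.00-fold (1.33 to 3.02) and Ifit1 2.88-fold (1.31 to 6.56). In ILC progenitor-like cells, 2 of 19 members measured were higher in the pool, Irf9 and Ifi27l2a, beside 5.47% of genes. A member under 20 UPM in 1 library counted as measured through the other alone, as Irf9 did through the pool. Higher in the second library were Gbp4, 2.71-fold (1.05 to 7.30), Serpina3f, 4.07-fold (1.27 to 15.2), and Serpina3g, 2.99-fold (1.90 to 4.77), beside 6.44%.

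Against ILC2 of the third library, 10 of 18 members measured were higher in gamma delta T cells of the pool, beside 12.5% of genes, and 0 lower, beside 6.03%. The 10 were Gbp2, Gbp6, Gbp8, Igtp, Ifi47, Irf1, Isg15, Ifi27l2a, Tap1 and Socs1. For gamma delta T cells of the second library the members higher numbered 11 of 20, beside 11.1% of genes, and 0 were lower, beside 6.01%. They were Gbp6, Gbp8, Igtp, Ifi47, Irf1, Irf7, Irf9, Isg15, Ifi27l2a, Tap1 and Nlrc5. The counts share the ILC2. Igtp stood at 26.27 and 39.50 UPM in gamma delta T cells and 5.970 UPM in ILC2. Ifi27l2a had 14 UMIs in ILC2, or 2.322 UPM (1.269 to 3.896). Both genes counted as measured through gamma delta T cells alone. The same held at least for Gbp2, Gbp6, Ifi47, Irf7, Irf9 and Isg15 where they were called, each under 20 UPM in ILC2. Such members could be called higher but not lower.

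Within gamma delta T cells the gamma type sum varied with subset. Cells with an Il17a UMI stood at 226.5 UPM (207.3 to 247.0) in the pool and 287.3 UPM (265.3 to 310.6) in the second library. Cells with Cxcr3, a receptor for interferon-induced chemokines, and no Il17a stood at 419.3 UPM (359.3 to 486.4) and 346.2 UPM (321.8 to 371.9). Cells with neither stood at 326.8 and 290.0 UPM, in the second library level with Il17a cells. In this order the subsets held 465, 90 and 299 cells in the pool and 476, 412 and 547 in the second library. Igtp was at 16.81 UPM in Il17a cells and 48.19 UPM in Cxcr3 cells of the pool, while in the second library these were 44.93 and 45.94 UPM.

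Gamma type UMIs were spread unevenly over cells. Each cell was thinned to 2000 UMIs, and a cell with at least 3 gamma type UMIs was called responding. In the pool 37 of 851 gamma delta T cells responded, 4.35% (3.08 to 5.94), and in the second library 73 of 1421, 5.14% (4.05 to 6.42). Without thinning the shares were 13.9% and 17.4%. The counting intervals of the libraries overlapped. In cells with Il17a, with Cxcr3 and no Il17a, and with neither, thinned shares were 2.80%, 7.87% (3.22 to 15.5) and 5.72% in the pool. In the second library they were 4.68%, 5.61% and 5.18%. Intervals of the subsets overlapped within each library. In thinned cells 63.7% and 64.9% had 0 gamma type UMIs, the highest cells had 10 and 11, and the variance was 2.09 and 2.37 times the mean. At the threshold itself 17 and 31 cells had exactly 3 UMIs, and 59 and 112 had 2. Shares in other gates were 4.70% (2.37 to 8.26) and 3.64% (1.000 to 9.05) in alpha beta T cells, 15.8% (6.02 to 31.3) and 11.8% (3.30 to 27.5) in ILC1 and NK cells, and 30.0% (20.3 to 41.3) in the stromal gate of the pool. In ILC2 of the third library 25 of 1231 responded, 2.03% (1.32 to 2.98), and 7.74% without thinning. No gate lacked these genes, so the part of free RNA in the shares was not tested.

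**Figure D3:**
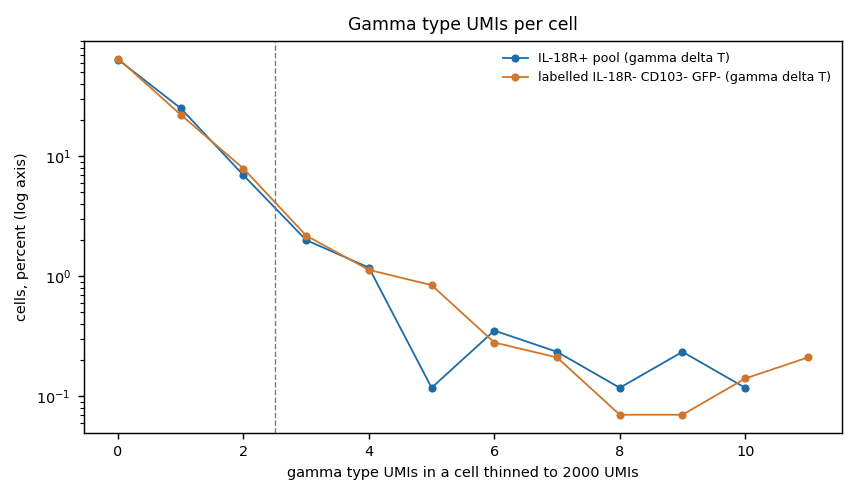
Share of gamma delta T cells, in percent on a log axis, by number of gamma type UMIs after thinning to 2000 UMIs; counts with no cell are not drawn. Right of the dashed line lie the 4.35% and 5.14% of cells called responding, which reach 10 and 11 UMIs.

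By the same threshold on the type I list, 4 of 851 and 5 of 1421 gamma delta T cells responded, 0.470% (0.128 to 1.20) and 0.352% (0.114 to 0.819), and 0 of 1231 ILC2, which allows up to 0.244% at 3 counts of the total, or 0.299% by the interval used for the other shares. The type I list has fewer genes and UMIs, so the threshold is not equal in effect. In the pool 1 gamma delta T cell held 23 type I UMIs after thinning, the highest of any.

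Most responding cells held UMIs of more than 1 GTPase gene: 34 of 37 and 70 of 73 cells had UMIs of at least 2 genes of the list. Igtp was seen in 43.2% and 45.2% of responding cells, Gbp7 in 40.5% and 43.8%, Gbp6 in 40.5% and 42.5%, and Gbp4 in 32.4% and 56.2%. Iigp1 gave 22 of 164 and 27 of 332 list UMIs in responding cells, against 1 of 331 and 13 of 538 in cells with 1 or 2 list UMIs. These values describe how the cells were chosen and were not compared further.

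Genes outside the list were not used to choose the cells. Responding gamma delta T cells were set against those with 0 gamma type UMIs in the same library, 542 cells in the pool and 922 in the second. Of 21 members outside the list that were measured in each library, 14 were higher in responding cells of the pool, beside 2.80% of genes. In those of the second library 17 of 21 were higher, beside 2.83%. Of those called in the pool, Irgm2, Irf7, Irf9, Ifit1, Oasl2 and Rsad2 reached 20 UPM only in responding cells. In the second library the same held for Tgtp1, Tgtp2, Stat2, Irf7, Zbp1, Serpina3f and Ifit1. Such members could be called higher but not lower. Of 24 members outside the list, 19 were measured in both libraries and 10 were higher in both, beside 0.647% of all genes. Lower in both were 0 members, beside 0.0360% of genes. With sums raised to 3 UMIs, a call of lower was out of reach for most members. In the pool only Psmb8 and Socs1 stood high enough in cells with 0 gamma type UMIs, at 372.7 and 174.4 UPM. The 10 were Ifi47, Irf1, Irf7, Irf9, Zbp1, Serpina3g, Isg15, Ifit1, Bst2 and Tap1. With responding cells called from 2 UMIs, 7 members were higher in both, of which 4 are among the 10, and without thinning 7, of which 6 are.

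Ifi47, itself a GTPase of the family, stood at 162.2 and 184.9 UPM in responding cells against 27.68 and 22.23 UPM, or 5.86-fold (2.73 to 11.8) and 8.32-fold (4.92 to 13.9). Irf1 stood at 391.9 and 356.2 UPM against 80.26 and 106.8 UPM, or 4.88-fold (3.09 to 7.51) and 3.33-fold (2.41 to 4.55). Bst2 was 5.75-fold (3.35 to 9.58) and 3.75-fold (2.47 to 5.58) higher, and Tap1 6.21-fold (3.72 to 10.1) and 2.93-fold (1.78 to 4.66). The type I gene Isg15 was 6.73-fold (3.55 to 12.3) and 3.51-fold (1.84 to 6.31) higher. Ifit1 had 12 UMIs in the pool's 37 responding cells and 0 in its 542 other cells. In the second library it had 6 UMIs in each group, a ratio of 12.6 (3.38 to 47.2). Only 6 of the pool's 37 responding cells held any type I list UMI. Those cells held 17 UMIs of Isg15, 12 of Ifit1, 4 of Rsad2 and 2 of Ifit3. The cell with 23 type I UMIs was among them. The pool's ratios for Isg15 and Ifit1 thus rest on few cells, which their counting intervals do not cover. Socs1 had ratios of 1.24 (0.695 to 2.07) and 1.10 (0.694 to 1.67), and a larger increase than 2.07-fold lay outside the pool's interval. Serpina3f was 12.6-fold higher (7.05 to 22.6) in the second library and was not measured in the pool. A type I list UMI was seen in 16.2% (6.19 to 32.0) and 19.2% (10.9 to 30.1) of responding cells and in 5.72% (3.92 to 8.02) and 5.10% (3.77 to 6.72) of cells with 0 gamma type UMIs.

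**Figure D4:**
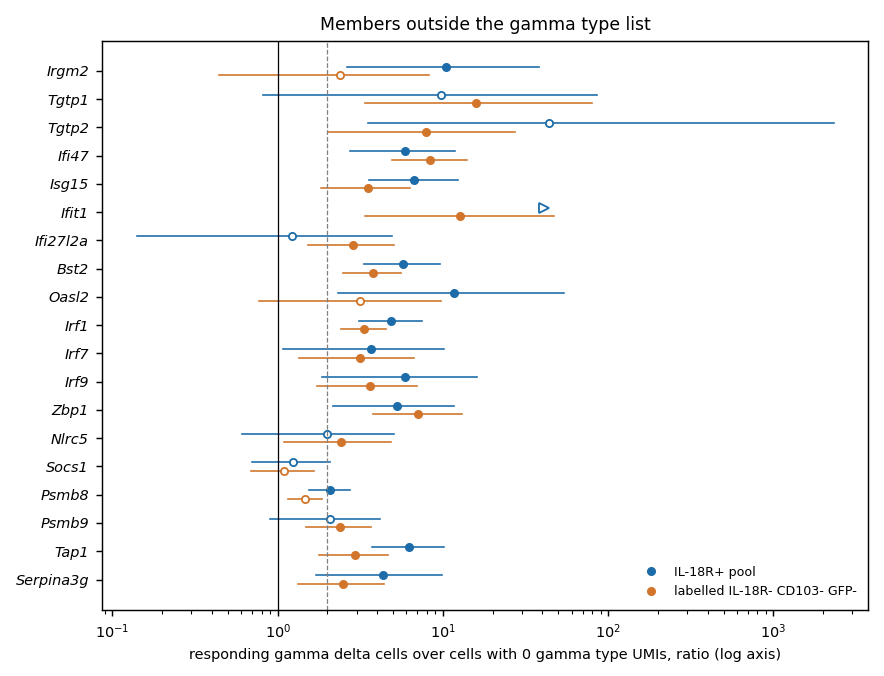
Ratio of UPM in responding gamma delta T cells over cells with 0 gamma type UMIs, on a log axis, for the 19 members outside the gamma type list measured in both libraries. Filled points were called higher, lines are 95% counting intervals, the arrow marks the lower limit for Ifit1 in the pool, and the dashed line marks a ratio of 2; Irf1 lies at 4.88 and 3.33 and Socs1 at 1.24 and 1.10.

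Among genes outside the members, those with the largest ratios in both libraries included Rtp4, Cd274, Ly6a, Slfn8, Ppif, Herc6 and Eif2ak2. Ly6a, the Sca-1 surface gene, was 8.55-fold (6.37 to 11.4) and 7.21-fold (5.56 to 9.30) higher, and Cd274, the PD-L1 gene, 11.7-fold (4.02 to 33.0) and 7.69-fold (3.66 to 15.6). Rtp4 rests on 4 UMIs against 1 in the pool, a ratio of 58.6 (5.80 to 2890). Of other interferon-induced genes on the pathway list, 8 of 20 measured in both were higher in both, and of class I presentation genes 1 of 11, Psme1, beside the 0.647% of all genes. Ifngr1 stood at 1338 and 1582 UPM in responding cells and 1269 and 1365 UPM in the others. Cxcl10, a chemokine that CXCR3 binds, was 9.33-fold higher (6.29 to 13.8) in responding cells of the second library. In the pool it stood at 13.51 UPM (1 UMI) in responding and 35.98 UPM (39 UMIs) in other cells, a ratio of 0.376 (0.00927 to 2.22).

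Depth and markers of other cell types were set beside the response. Median UMIs before thinning were 4463 in responding and 4681 in other cells of the pool, and 4474 and 4733 in the second library. Stromal gate genes gave 40.5 UPM (3 UMIs) in responding and 25.8 UPM in other cells of the pool, and 20.5 and 31.5 UPM in the second library. Cdh5 and Lyz2 had 0 UMIs in responding gamma delta T cells of both libraries. Myeloid gate genes had 0 UMIs in responding cells of the pool and 1 in those of the second library. B cell gate genes gave 0 UPM in responding and 28.6 UPM in other cells of the pool, and 41.1 and 16.3 UPM in the second library. The part of other cell types in the response was not tested.

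The same comparison was made in ILC2 of the third library. Of 18 members outside the list that were measured, 8 were higher than in the 897 ILC2 with 0 gamma type UMIs, beside 2.52% of genes: Ifi47, Zbp1, Serpina3f, Serpina3g, Psmb8, Psmb9, Tap1 and Nlrc5. In the 25 responding cells 1 UMI was enough to count as measured. Of the 8, Ifi47, Zbp1, Serpina3f and Nlrc5 reached 20 UPM only in responding cells and could be called higher but not lower. With sums raised to 3 UMIs, a call of lower was within reach of Psmb8 alone, at 225.8 UPM in the 897 cells. Ifi47 was 8.28-fold (2.79 to 20.6), Tap1 6.98-fold (2.62 to 15.9) and Serpina3f 19.6-fold (5.94 to 57.7) higher, each from 6 or 7 UMIs in 25 cells. Cxcl10 was 8.70-fold (5.32 to 13.7) higher and Ly6a 3.33-fold (2.49 to 4.39). Stromal gate genes were seen in 3 of the 25 responding ILC2, a higher share than the 7.13% of the 897 others, though from 3 UMIs. Cdh5, Lyz2 and the myeloid gate genes had 0 UMIs in responding ILC2. Iigp1, far higher in the stromal gate, gave 26 of 142 list UMIs in responding ILC2. In ILC2 with 1 or 2 list UMIs it gave 0 of 355. List UMIs were used to choose these cells. The part of stromal cells in this response was not tested.

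Ligand, receptor and signalling genes of the pathway were read from a separate list. Of ligands, Ifng was the 1 measured, at 10.50, 29.71 and 1.179 UPM. It was 2.83-fold higher (2.20 to 3.67) in the second library than in the pool and 25.2-fold (13.1 to 55.7) than in the third. In gamma delta T cells it stood at 11.92 and 29.77 UPM, a ratio between 1.82 and 3.48. Ifngr1, the ligand-binding chain for interferon gamma, stood at 1089, 1294 and 220.4 UPM, 4.94-fold (4.69 to 5.21) and 5.87-fold (5.58 to 6.18) above the third library. Ifngr2, the second chain, stood at 149.9, 73.52 and 63.00 UPM and was 2.20-fold higher (1.95 to 2.48) in gamma delta T cells of the pool than in those of the second library.

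Socs3, a further inhibitor of cytokine signalling, stood at 95.57, 115.1 and 12.57 UPM, above the third library by a ratio between 6.14 and 9.50 in the pool and by 9.15-fold (7.42 to 11.4) in the second. Irf8, a transcription factor of the same family as Irf1, was 5.81-fold higher (3.93 to 8.86) in the pool than in the third library. Jak2, the kinase on the second chain, was highest in the third library, 2.37-fold (2.15 to 2.62) above the second. Of receptor and signalling genes, 1 of 14 measured was higher in the pool than in the second library and 0 lower, beside 0.761% and 0.902% of all genes. Against the third library 4 of 14 were higher in the pool and 1 lower, beside 11.1% and 4.81%. Among other induced genes Ly6a ran against the members, at 121.8, 121.5 and 346.6 UPM, or 2.85-fold (2.64 to 3.07) and 2.85-fold (2.66 to 3.06) higher in the third library. Ifi213 ran with them, at 22.69, 25.48 and 1.572 UPM, 14.4-fold (8.06 to 28.5) and 16.2-fold (9.11 to 31.8) above the third library. Cd274 was 2.18-fold higher (1.73 to 2.76) in the pool than in the third library, and Ifi209 2.34-fold (1.93 to 2.86) in the second. Of the 39 other induced genes on the list, 14 were measured against the third library, with 2 higher and 1 lower in either comparison. Over all genes 11.1% and 10.2% were higher and 4.81% and 5.42% lower, so these counts lie near the background. Of 11 class I presentation genes 0 were called in any comparison between libraries. H2-Q7 stood at 428.7, 729.0 and 488.3 UPM.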

How the data were processed

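Per the file headers and the labels' protocols, the authors deposited counts: whole UMI counts per gene and barcode from 10x 3′ libraries, unnormalised. The submitters' processing notes name Cell Ranger 6.0.1 and build mm10, and the sources used here give no further settings. Barcodes with 500 or more genes and a mitochondrial share of UMIs up to 10% were kept. Scrublet (scanpy 1.11.5) marked 4, 11 and 11 cells, which were left out. So few calls mean that doublets were in effect not removed. Libraries shared at most 1 barcode. Cells were gated on marker sums (B, myeloid, stroma, then T and ILC classes), and UMIs were summed per library and gate and divided by the total (UPM). Intervals are Poisson, exact binomial (Clopper-Pearson) or conditional binomial, at 95%. The size rule was checked on simulated sums. TMM factors from edgeR 4.0.16 gave an alternative scaling. No ambient RNA correction was run.

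Members with at least 20 UPM in any library are named with values, with the called members and the most abundant per list in gamma delta T cells, up to 4 pathway genes per list and comparison by size of ratio, and 8 genes of responding cells, leaving out predicted genes. The members and lists were chosen with earlier results of these data known. Mx1, Mx2 and Gbp11 were not analysed here, and 1 gene that the rule names is not reported here.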

Additional observations from a re-analysis of the deposited data

Results flagged for a closer look

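The contrast of the pool with the second library (labelled IL-18R- CD103- GFP-) ran in opposite directions in different lineages for 2 members. In ILC progenitor-like cells Ifi27l2a stood at 203.1 UPM in the pool and 27.56 UPM in the second library, a ratio of 7.37 with a lower counting bound of 4.01, while in gamma delta T cells it stood at 48.90 and 76.64 UPM, a ratio of 0.638 (0.540 to 0.751). In alpha beta T cells it stood at 289.5 and 417.8 UPM. In the same progenitor-like cells Irf9 had a ratio of 3.19 (1.11 to 12.6), from 32.00 and 10.02 UPM, and in gamma delta T cells a ratio of 0.657 (0.490 to 0.873). In the pool 6 of the 112 progenitor-like cells held 36.1% of the UMIs of a wider type I list that includes Ifi27l2a and Irf9. Counting bounds do not cover such unevenness between cells. Each lineage was 1 library per group, and the difference between lineages was not tested.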

How the results depend on the processing

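No paired analysis was possible because each group is a single library. Recomputed counts, sums and shares stayed within 1.5 times or inside the counting interval in 86 cases and moved further in 34, all given here. Values of single members stayed so in 1149 cases, moved further in 41 and reversed in 0. Members higher in the pool than in the IL-18R- ST2+ library, 8 as reported, numbered 5 under TMM, 5 under median of ratios scaling, 15 with no minimum level and 13 at a ratio of 1.5; for the second library, 12 as reported, these were 7, 7, 20 and 17, the last within 1.5 times. In gamma delta T cells, members higher in the second library, 0 as reported, numbered 1 under TMM, median of ratios, a minimum of 5 UPM and every barcode, 2 with no minimum or stricter gates and 3 at a ratio of 1.5. The wider gamma type list of 15 genes gave 330.1, 369.6 and 209.5 UPM in gamma delta T cells of the pool, of the second library and ILC2, and the wider type I list of 11 genes 227.7, 268.7 and 109.3 UPM, by construction. Responding shares in that order were 11.3%, 13.0% and 5.77% at 2 UMIs, 1.18%, 1.83% and 0.650% at 5 UMIs, 6.27%, 8.91% and 3.17% at 3000 UMIs per cell, and 13.9%, 17.4% and 7.74% unthinned. In the second library the share was 6.76% by the wider list and 3.71% at 1500 UMIs. Members higher in both sets of responding cells, 10 as reported, numbered 7 (4 of them shared) at 2 UMIs and 7 (6 shared) without thinning. The cause of changes under scaling was not tested. The B gate, the CD3 rule of the ILC2 gate, cells free of stromal and myeloid UMIs and another seed were alternatives chosen after seeing the data. Sums under 20 UPM rest on few UMIs, and smaller differences were not detectable at this depth.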

Other observations

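Of the cells outside the lineages compared, the B gate gave gamma type sums of 207.2 UPM (163.5 to 258.9) in 63 cells of the pool and 320.8 UPM (241.0 to 418.6) in 30 cells of the second library. In the latter 96.7% of the gate had a Cd79b UMI and 83.3% a Cd3e UMI, so its cells carried T cell transcript. CD3-low cells in no named gate stood at 213.7, 375.8 and 227.1 UPM in 86, 55 and 82 cells. In the second of these, 49.5% of the gamma type UMIs lay in 3 cells.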
